A study of Mus musculus with 15 samples.

Results

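The Hox genes of the mouse thoracic aorta were described here from the polyadenylated RNA of 15 animals. The members were every row of the gene count table whose symbol was Hoxa, Hoxb, Hoxc or Hoxd followed by a number and nothing more. This rule took 40 of 37681 rows, which stood for 39 genes because Hoxa3 had 2 rows. Of these genes 11 belonged to the Hoxa cluster, 10 to Hoxb, 9 to Hoxc and 9 to Hoxd. The animals were wild-type C57BL/6 adult males aged 10 to 12 weeks, each dosed once by gavage with 100 uL, killed 6 hours later and collected at zeitgeber time 11 (ZT11, counted from lights on). There were 5 vehicle mice given PEG-400, 5 given the cyclooxygenase-2 inhibitor celecoxib at 30 mg/kg, and 5 given the cyclooxygenase-2 inhibitor rofecoxib at 10 mg/kg. Library preparation ran over 3 days, but the day of each library is not given in the sources used here, nor is the stretch of thoracic aorta taken.

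Hox genes encode homeodomain transcription factors that give cells their position along the head-to-tail axis. They lie in 4 clusters, and within a cluster the genes are numbered by their order on the chromosome. Low numbers are switched on early and reach far toward the head, while high numbers are switched on late and stay toward the tail, so the set of Hox genes a tissue transcribes records where it came from. Adult smooth muscle cells and fibroblasts of the vessel wall are known to keep such a set.

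The Hox protein binds DNA through its homeodomain, whose recognition helix reads the DNA bases. The coding bases of this domain are shown for Hoxa5, Hoxc6 and Hoxd8, which had the highest level per kilobase of exon in their clusters, for Hoxa4, the member of smallest p in 2 drug comparisons, and for Hoxa10 and Hoxc10, the pair that varied most closely together. Hoxa4 and the last pair were chosen after their values were seen. Each run holds 180 bases, is written 5′ to 3′ on the coding strand, and comes from the GENCODE vM21 annotation of GRCm38. Capitals mark the 12 bases that encode the run tryptophan, phenylalanine, glutamine and asparagine of the recognition helix. The coordinates were Hoxa5 chr6:52202632-52202811 (minus strand) and Hoxa4 chr6:52190483-52190662 (minus strand). Those of the other runs were Hoxc6 chr15:103010754-103010933 (plus strand), Hoxd8 chr2:74706525-74706704 (plus strand), Hoxa10 chr6:52232554-52232733 (minus strand) and Hoxc10 chr15:102970848-102971027 (plus strand). Each lies within 1 coding exon.
Hoxa5: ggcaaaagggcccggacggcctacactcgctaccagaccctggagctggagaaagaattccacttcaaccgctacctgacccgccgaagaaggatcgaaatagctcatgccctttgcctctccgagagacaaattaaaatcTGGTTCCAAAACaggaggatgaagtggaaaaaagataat
Hoxa4: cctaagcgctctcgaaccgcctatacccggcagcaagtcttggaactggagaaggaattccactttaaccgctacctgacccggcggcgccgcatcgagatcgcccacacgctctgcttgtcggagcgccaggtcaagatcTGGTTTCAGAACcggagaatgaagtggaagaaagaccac
Hoxc6: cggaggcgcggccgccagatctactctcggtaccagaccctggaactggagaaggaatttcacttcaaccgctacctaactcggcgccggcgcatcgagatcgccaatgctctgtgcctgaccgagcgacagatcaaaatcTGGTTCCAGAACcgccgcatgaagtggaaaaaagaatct
Hoxd8: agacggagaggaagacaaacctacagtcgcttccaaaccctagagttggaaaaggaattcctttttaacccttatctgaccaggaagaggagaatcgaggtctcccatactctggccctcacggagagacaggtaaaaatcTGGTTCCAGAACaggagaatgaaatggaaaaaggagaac
Hoxa10: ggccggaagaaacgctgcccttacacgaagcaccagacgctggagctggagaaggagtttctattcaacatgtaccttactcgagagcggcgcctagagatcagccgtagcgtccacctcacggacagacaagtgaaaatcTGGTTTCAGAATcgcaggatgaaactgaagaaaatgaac
Hoxc10: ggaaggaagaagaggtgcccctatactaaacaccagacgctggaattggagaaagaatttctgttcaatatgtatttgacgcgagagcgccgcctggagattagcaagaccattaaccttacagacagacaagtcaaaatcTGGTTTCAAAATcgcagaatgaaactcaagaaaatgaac
Hoxa10 and Hoxc10, paralogues with the same number, differed at 35 bases and 4 of 60 encoded residues. Hoxa5 and Hoxa10, members of 1 cluster but far apart in number, differed at 69 bases and 21 residues. The homeoboxes of Hoxa3 and Hoxb3 were closer, and differed at 11 bases and 1 residue.

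The 15 libraries held 30937046 to 30967115 counts each, a spread of 0.0971% of their mean, so counting error was about the same in all of them. Levels are given as CPM, with library sizes scaled by the TMM method of edgeR. All 10 smooth muscle markers and all 10 endothelial markers were measured, with summed levels of 41019.9 to 57465 CPM and 535 to 1065 CPM over the libraries. Markers of other cells were unevenly spread. The 10 brown adipocyte markers summed to 426 to 1727 CPM in vehicle, 89.7 to 591 CPM in celecoxib and 220.5 to 522 CPM in rofecoxib. The 14 sympathetic neuron markers summed to 206 CPM in celecoxib 2, 1124 in celecoxib 4, 393 in rofecoxib 3, 746 in rofecoxib 5 and 505 in vehicle 4. They summed to at most 94.9 CPM in the other 10 libraries. For the Hox genes 2 libraries, rofecoxib 2 and celecoxib 1, were set apart after their values were seen. Both lay below the median of the other libraries in all 6 expressed genes numbered 9 or 10. The main counts and medians are also given without them. Celecoxib 2 and celecoxib 5 were kept, though high in these 6 genes (1.51 and 1.57 times the median of the others, at the median gene). Values without the 2 libraries therefore trim the low side only.

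In total 26 of 39 Hox genes reached a mean of 1 CPM. They included Hoxa2 to Hoxa7, Hoxa9 and Hoxa10; Hoxb2 to Hoxb9; Hoxc4, Hoxc5, Hoxc6, Hoxc8, Hoxc9 and Hoxc10; and Hoxd3, Hoxd8 and Hoxd9. By cluster, this was 9 of 11 Hoxa genes, 8 of 10 Hoxb genes, 6 of 9 Hoxc genes and 3 of 9 Hoxd genes. By number, it was 9 of 12 genes numbered 1 to 4, all 11 genes numbered 5 to 8, and 6 of 16 genes numbered 9 to 13. The expressed genes of each cluster ran without a gap in Hoxb and Hoxc, while in Hoxd the gene between Hoxd3 and Hoxd8, Hoxd4, averaged 0.835 ± 0.299 CPM (SD, n = 15).

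Compared per kilobase of exon, which sets genes of different length on 1 scale, the levels were highest in the middle of the Hoxa and Hoxb clusters. Hoxa5, needed for lung and for the vertebrae of the neck and upper trunk, averaged 12.3 ± 1.31 CPM per kb (SD, n = 15). It exceeded its nearest Hoxa neighbour in level, Hoxa7, in all 15 libraries. Hoxa7 (8.58 ± 1.06 CPM per kb) and Hoxa6 (8.07 ± 1.11) did not differ beyond the spread between libraries, since Hoxa7 was higher in 11 of 15. Hoxa2, which sets the identity of a pharyngeal arch, and Hoxa3, which patterns the pharyngeal arches and the great vessels near them, did not differ beyond the spread either, at 6.71 ± 1.23 and 6.47 ± 0.872 CPM per kb, with Hoxa2 higher in 8 of 15. Hoxa3 was above Hoxa4 (3.61 ± 0.61 CPM per kb) in all 15 libraries. The lower end held Hoxa10 (2.87 ± 1.25 CPM per kb) and Hoxa9 (1.85 ± 0.587), with Hoxa10 higher in 13 of 15 libraries.

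In the Hoxb cluster, Hoxb4, known for its part in blood stem cell expansion, averaged 11 ± 1.3 CPM per kb. Hoxb6 averaged 10.6 ± 1.13 CPM per kb and lay below Hoxb4 in 11 of 15 libraries, so the order of these 2 genes was not settled by the data. Hoxb7 (8.24 ± 1.22 CPM per kb) was below Hoxb6 and above Hoxb5 (5.82 ± 0.623) in all 15 libraries. Hoxb5 was above Hoxb3 (1.67 ± 0.397 CPM per kb) in all 15 as well. Hoxb3, Hoxb9, Hoxb8 and Hoxb2 then followed within a narrow range of 1.30 to 1.67 CPM per kb, and their order changed between libraries.

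The leading Hoxc and Hoxd genes had lower mean levels per kb than Hoxa5 and Hoxb4. Hoxc6 averaged 3.97 ± 1.01, Hoxc4 3.05 ± 0.646, Hoxc10 2.96 ± 1.38 and Hoxc8 2.17 ± 0.531 CPM per kb, and the order of neighbours among these 4 genes was not the same in every library. Hoxc8, a regulator of motor neuron and skeletal identity in the lower neck and trunk, was above Hoxc9 (0.73 ± 0.309 CPM per kb) in all 15 libraries. Hoxd8 (2.61 ± 0.851 CPM per kb) was above Hoxd9 (1.15 ± 0.429), and Hoxd9 above Hoxd3 (0.308 ± 0.105), in all 15. With the genomic span as the length instead of the exons, the leading gene stayed the same in 3 of 4 clusters and became Hoxc8 in Hoxc. Mean levels by span put Hoxa4 above Hoxa3 and Hoxb5 above Hoxb6 and Hoxb7, the reverse of the orders by exon. A gene's length is the same in every library, so an order seen in all 15 does not cover the choice of length.

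**Figure D1:**
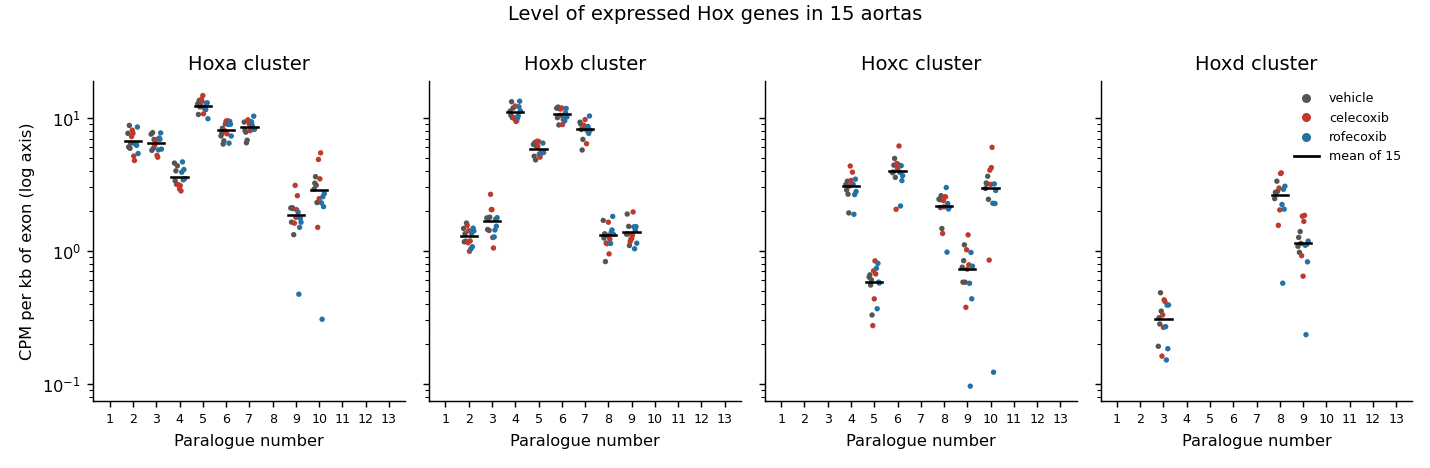
Level of the expressed Hox genes reported here, in CPM per kb of exon on a log axis, against paralogue number in each cluster, with 1 point per library coloured by group and a bar at the mean of 15. Hoxa5 and Hoxb4 have the highest bars of their clusters (12.3 and 11 CPM per kb), and the wide columns at numbers 9 and 10 hold single low points from rofecoxib 2.

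Under a mean of 1 CPM were 13 genes. Hoxa11, Hoxd4 and Hoxd10 passed the filter on low counts (edgeR's filterByExpr) and entered the tests, with means of 0.843, 0.835 and 0.318 CPM. Hoxb13, a regulator of prostate and tail, and Hoxd12 had 0 counts in all 15 libraries, which allows a level of up to 3 counts, or 0.0932 to 0.102 CPM, in each of them. Hoxd1 and Hoxd13, the latter a gene of digits and genital tubercle, each had 1 count in 1 library. Hoxc12 and Hoxc13 had 9 counts each over all libraries, Hoxd11 had 20 and Hoxb1 had 23. Hoxa13, which patterns the hindgut and digits, had 72 counts and Hoxc11 had 126. The second row named Hoxa3 was at 0 throughout, and its span overlapped those of Hoxa2, Hoxa4, Hoxa5, Hoxa6 and the Hoxa3 row used here. At this depth, a lower level than these floors could not be told from none.

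The coefficient of variation (CV, the SD as a percent of the mean over 15 libraries) was 10.6% to 23.8% for the 14 expressed Hoxa and Hoxb genes numbered 1 to 8, with a median of 14.3%. The median over all 13218 tested genes with a mean of at least 1 CPM was 11.2%, and Hoxa5, Hoxb5 and Hoxb6 were the members under it. Hoxa5, the member of smallest CV, read 23.9, 19.9, 25.4, 22.7 and 23.2 CPM in vehicle libraries 1 to 5, 25.9, 25.1, 27.6, 20.1 and 22.2 CPM in celecoxib libraries 1 to 5, and 22.7, 21.7, 24.1, 24.4 and 18.5 CPM in rofecoxib libraries 1 to 5. Hoxb4 read 28.9, 26.9, 34, 25.8 and 30.4 CPM in vehicle libraries 1 to 5, 25.8, 25.3, 31.5, 24.1 and 24.4 CPM in celecoxib libraries 1 to 5, and 25.6, 26.6, 31.1, 34.2 and 29 CPM in rofecoxib libraries 1 to 5. In both genes the 3 groups overlapped, and neither rofecoxib 2 nor celecoxib 1 was the lowest library. Hoxb5, Hoxb6 and Hoxb3 had the ranges 13.5 to 18.6, 17.4 to 23.7 and 4.47 to 11.3 CPM, with Hoxb3 highest in celecoxib 1.

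The CV was 21.2% to 34.0% for the 6 expressed Hoxc and Hoxd genes numbered 3 to 8, and 19.5% to 46.4% for the 6 expressed genes numbered 9 or 10 in any cluster. Without rofecoxib 2 and celecoxib 1, the first of these ranges was 15.6% to 27.6% and overlapped that of the Hoxa and Hoxb genes numbered 1 to 8, which was then 10.7% to 21.5%. Hoxd8 went from 32.5% to 20.5% and Hoxc8 from 24.5% to 15.6%. Over all 15 libraries the largest were Hoxc10 at 46.4%, Hoxa10 at 43.5% and Hoxc9 at 42.3%. Among all tested genes, 91.7% had a lower CV than Hoxc10 and 90.5% a lower one than Hoxa10. Without rofecoxib 2 the CV of Hoxc10 was 37% and that of Hoxa10 34.9%, and without rofecoxib 2 and celecoxib 1 they were 29.9% and 31.7%. The median over the 6 genes numbered 9 or 10 went from 39.8% to 29.7% without those 2 libraries, against 14.9% for the Hoxa and Hoxb genes numbered 1 to 8.

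**Figure D2:**
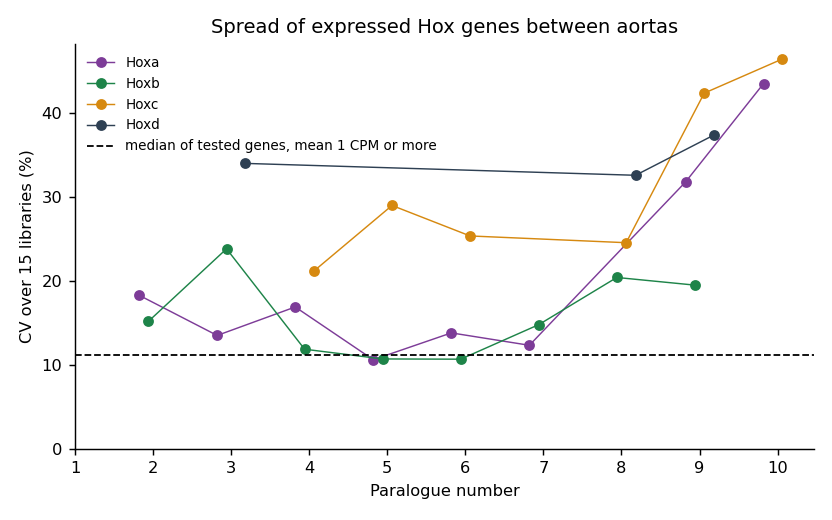
CV over 15 libraries in percent against paralogue number for the expressed Hox genes reported here, joined by cluster, with a dashed line at the median of tested genes with a mean of at least 1 CPM (11.2%). Hoxa and Hoxb genes numbered 1 to 8 lie at or under 23.8%, and Hoxa10, Hoxc9 and Hoxc10 lie above 40%.

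Hoxa10, which marks lumbar levels and the uterus in development, read 9.55, 10.6, 11.8, 10.2 and 7.55 CPM in vehicle libraries 1 to 5, 4.91, 15.9, 8.07, 11.4 and 17.8 CPM in celecoxib libraries 1 to 5, and 7.51, 1.0, 8.35, 7.03 and 8.82 CPM in rofecoxib libraries 1 to 5. The lowest value, in rofecoxib 2, came from 30 counts and was 17.8 times under the highest, in celecoxib 5. The rofecoxib and celecoxib groups still overlapped. Celecoxib 1 lay under 4 of the 5 rofecoxib libraries, and celecoxib 3 lay under rofecoxib 3 and rofecoxib 5. Hoxc10, its paralogue with a known role in hindlimb motor neurons, read 5.62, 6.19, 6.09, 6.95 and 4.66 CPM in vehicle libraries 1 to 5, 1.63, 7.72, 6.04, 8.08 and 11.5 CPM in celecoxib libraries 1 to 5, and 4.35, 0.234, 6.08, 4.34 and 5.44 CPM in rofecoxib libraries 1 to 5. It was lowest in rofecoxib 2, where it rested on 7 counts, next lowest in celecoxib 1 and highest in celecoxib 5. The vehicle libraries kept between 4.66 and 6.95 CPM. Hoxa9, a regulator of blood progenitors and of the lower trunk, read 11.7, 9.18, 11.8, 11.6 and 7.39 CPM in vehicle libraries 1 to 5, 9.02, 17.3, 9.98, 11.4 and 14.5 CPM in celecoxib libraries 1 to 5, and 10.9, 2.64, 8.38, 9.8 and 9.17 CPM in rofecoxib libraries 1 to 5. Here rofecoxib 2 was again the lowest library, and celecoxib 1 lay among the others.

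Hoxd8 read 6.78, 7.57, 7.52, 9.17 and 7.72 CPM in vehicle libraries 1 to 5, 4.27, 8.14, 5.58, 10.5 and 10.6 CPM in celecoxib libraries 1 to 5, and 6.13, 1.57, 7.98, 5.65 and 8.41 CPM in rofecoxib libraries 1 to 5. Hoxd9, which acts in the limb and lower trunk, read 2.31, 2.7, 2.08, 2.98 and 2.43 CPM in vehicle libraries 1 to 5, 1.97, 3.89, 1.38, 3.56 and 3.95 CPM in celecoxib libraries 1 to 5, and 2.35, 0.501, 2.4, 1.77 and 2.53 CPM in rofecoxib libraries 1 to 5. Both genes were lowest in rofecoxib 2 and highest in celecoxib 5. Hoxc9, which sets thoracic motor neuron identity, read 1.83, 1.42, 2.05, 2.7 and 1.41 CPM in vehicle libraries 1 to 5, 0.915, 2.48, 1.77, 3.21 and 1.91 CPM in celecoxib libraries 1 to 5, and 1.39, 0.234, 2.36, 1.06 and 1.87 CPM in rofecoxib libraries 1 to 5. It rested on 7 counts in rofecoxib 2 and was highest in celecoxib 4. Hoxc6, a gene of the lower neck and upper trunk, read 9.32, 9.44, 10.6, 11.9 and 8.6 CPM in vehicle libraries 1 to 5, 4.95, 10.9, 10, 10.7 and 14.8 CPM in celecoxib libraries 1 to 5, and 9.39, 5.24, 10.5, 8.13 and 8.85 CPM in rofecoxib libraries 1 to 5. For Hoxc6 the lowest library was celecoxib 1, with rofecoxib 2 just above it. Hoxc8 had 2.77 CPM in rofecoxib 2, 3.83 in celecoxib 1 and 4.17 to 8.48 in the other 13 libraries. Hoxc5 had 1.13 and 0.847 CPM in these libraries and 1.02 to 2.60 in the others, so that vehicle 5 lay among the low ones.

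Rofecoxib 2 was the lowest of 15 libraries for 10 of 26 expressed members, and for all 6 of those numbered 9 or 10. Its level over the median of the other libraries was 0.167 at the median of these 6 genes, with a range of 0.0385 to 0.775, the last in Hoxb9. The same ratio had a median of 1.07 over the 7 expressed Hoxa and Hoxb genes numbered 1 to 4 and of 0.955 over the 7 numbered 5 to 8. It was 0.205 to 0.597 over the 6 Hoxc and Hoxd genes numbered 3 to 8. In celecoxib 1 the ratio had a median of 0.675 over the 6 genes numbered 9 or 10 and of 0.534 over the 4 Hoxc and Hoxd genes numbered 5 to 8. It was 1.04 and 1.07 for the Hoxa and Hoxb genes numbered 1 to 4 and 5 to 8. Celecoxib 5 went the other way, with a median of 1.57 over the 6 genes numbered 9 or 10 and 0.779 over the Hoxa and Hoxb genes numbered 1 to 4. All 7 of the latter were below the median of the other libraries.

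**Figure D3:**
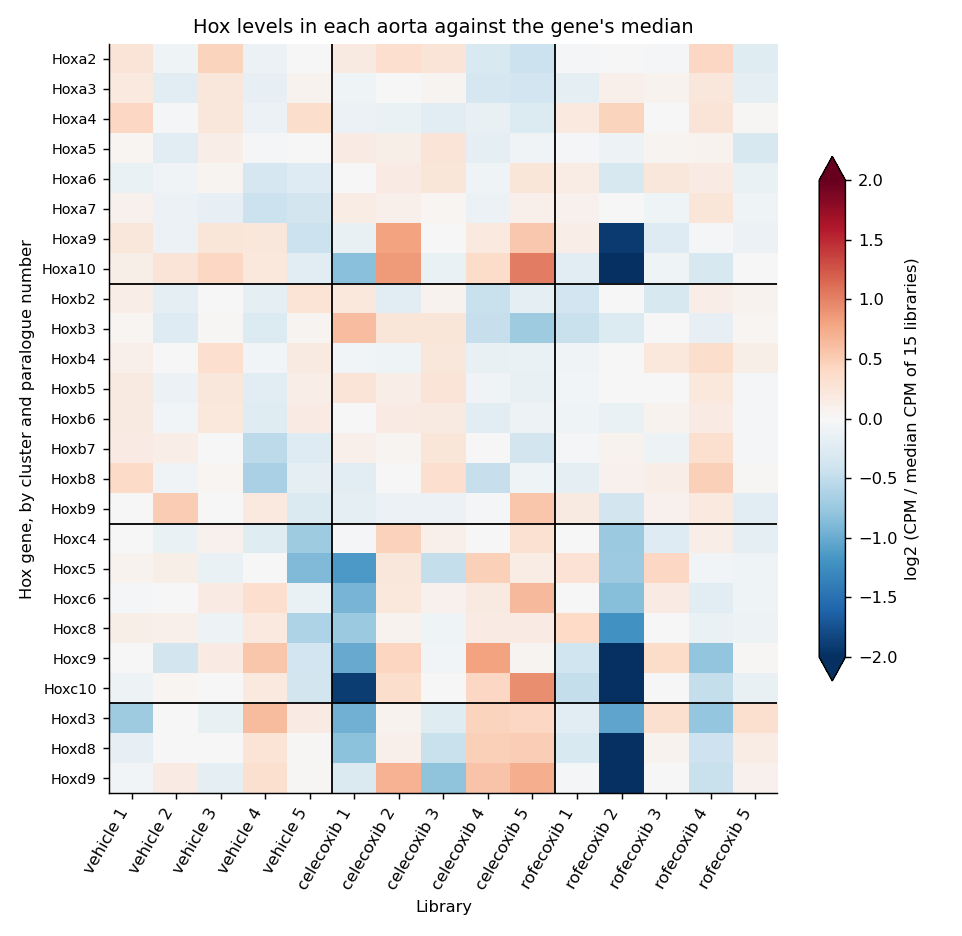
Level of the expressed Hox genes reported here (rows, by cluster and number) in each of the 15 libraries (columns, by group), as the log2 ratio to the gene's median over the libraries, with colours ending at -2 and 2. Rofecoxib 2 has dark low cells at Hoxa9, Hoxa10, Hoxc9, Hoxc10, Hoxd8 and Hoxd9 and pale cells at most Hoxa and Hoxb genes.

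The genes numbered 11 and 13 in the Hoxa cluster followed the same libraries at lower counts. Hoxa11, needed for the forearm and the uterus, had 94 counts in celecoxib 2, 88 in celecoxib 5, 3 in celecoxib 1 and 0 in rofecoxib 2. It had 12 to 33 counts in the vehicle libraries. Hoxa13 had 26 counts in celecoxib 2 and 20 in celecoxib 5, and at most 9 in any other library. Summed over all members, numbers 9 to 13 made up 3.20% of the Hox CPM in rofecoxib 2, 8.35% in celecoxib 1 and 9.42% to 20.7% in the other 13 libraries. The summed level of numbers 1 to 4 ranged only from 91.8 to 129.6 CPM and that of numbers 5 to 8 from 114 to 146 CPM. Aorta RNA is a mixture, so fewer cells of a type and less RNA per cell cannot be told apart in any of these values.

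Markers of other cells were compared between the libraries set apart above and the others. The summed endothelial markers were lowest in rofecoxib 2, at 535 CPM against 621 to 1065 in the other 14, and highest in celecoxib 5. Their sum was 852 CPM in celecoxib 1 and 718 CPM in celecoxib 2, on either side of the median of 838 CPM. As mean log2 CPM, these 2 libraries had 5.56 and 5.41, both under the median of 5.74. On that measure rofecoxib 2 was again lowest (4.88), and vehicle 4 (6.08) lay above celecoxib 5 (5.98). No endothelial marker was at 0 in any library. The smooth muscle sum was 57465 CPM in rofecoxib 2, the highest of 15. The adventitial fibroblast sum was 4753 CPM in rofecoxib 2 and 4580.2 CPM in celecoxib 1, inside the range of the others. Celecoxib 1 and rofecoxib 2 had the lowest mean log2 CPM of the tested Schwann cell markers (2.89 and 2.95, median 4.07). The same held for the tested mesothelial markers (-0.64 and 0.22, median 0.71). As summed CPM, the Schwann cell markers were 618 and 788 (median 805) and the mesothelial markers 14.1 and 15.6 (median 13.2). The group ranges were 698 to 1042 CPM in vehicle, 639 to 1065 CPM in celecoxib and 535 to 952 CPM in rofecoxib for endothelial markers, 41019.9 to 55114 CPM in vehicle, 48229.9 to 52224 CPM in celecoxib and 46878 to 57465 CPM in rofecoxib for smooth muscle markers and 4185 to 5947 CPM in vehicle, 3931 to 5428 CPM in celecoxib and 3290.0 to 5267 CPM in rofecoxib for adventitial fibroblast markers. The part of these cells in the Hox values was not tested.

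How the members varied together was measured over the 15 libraries after the group means were removed, for all 325 pairs of expressed members. Pearson's r passed Benjamini-Hochberg adjustment over the 325 pairs (permutation test within groups, two-sided, threshold 0.05) for 77 pairs, 66 positive and 11 negative. Spearman's rho passed for 64. Among Hoxa and Hoxb genes numbered 1 to 4 the median r was 0.565, and 5 of 21 pairs passed, all positive. Among those numbered 5 to 8 it was 0.568 with 7 of 21 passing, and between both ranges 0.534 with 14 of 49 passing and r down to -0.226. Hoxc members had a median r of 0.786 with each other (11 of 15 pairs passed) and of 0.740 with Hoxd members (9 of 18 pairs passed). Between Hoxa or Hoxb genes numbered 1 to 4 and those numbered 9 or 10, the median r was -0.248 over 21 pairs. Of these pairs 0 passed in the positive direction and 1 in the negative, and the lowest r was -0.639.

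The strongest pair was Hoxa10 with Hoxc10, which lie on different chromosomes. Its r was 0.97 (adjusted permutation p = 0.00691) and its rho was 0.93 (adjusted permutation p = 0.0130). Without the 2 libraries farthest from the median of Hoxa10, r was 0.88. Without rofecoxib 2 and celecoxib 1 it was 0.81, with an adjusted permutation p of 0.0588. Hoxa3 with Hoxb5 had an r of 0.89 and a rho of 0.89 (adjusted permutation p = 0.00691 and 0.0130), and r was 0.84 without the 2 libraries farthest from the median of Hoxa3. Hoxa2 with Hoxa3, neighbours in 1 cluster, had an r of 0.89 and a rho of 0.87 (adjusted permutation p = 0.00691 and 0.0132), and r was 0.85 without those farthest from the median of Hoxa2. The strongest negative pair was Hoxb2 with Hoxc5, at an r of -0.82 and a rho of -0.88 (adjusted permutation p = 0.0128 and 0.0130), and r was -0.78 without the 2 libraries farthest from the median of Hoxb2.

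The count of pairs was lower without the 2 libraries set apart. Without rofecoxib 2, 33 pairs passed, 24 of them positive, and 29 of these were among the 77. Without celecoxib 1, 39 passed. Without both, 22 pairs passed, 13 positive and 9 negative, of which 18 were among the 77. Over the 15 fits that left out 1 library, 20 pairs passed in every fit. Leaving out vehicle 4 or vehicle 5 also lowered the count by over 1.5 times, to 49 and 48. All 77 pairs kept the sign of r without rofecoxib 2 and celecoxib 1. The C with C median fell to 0.454 over 15 pairs when each pair was read without the 2 libraries farthest from the median of its first gene. The A with B median was 0.438 over 72 pairs, and 0.375 read in that way. Genes that share libraries and a scaling are not independent points, and neighbours within a cluster can share reads where their annotated spans overlap.

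**Figure D4:**
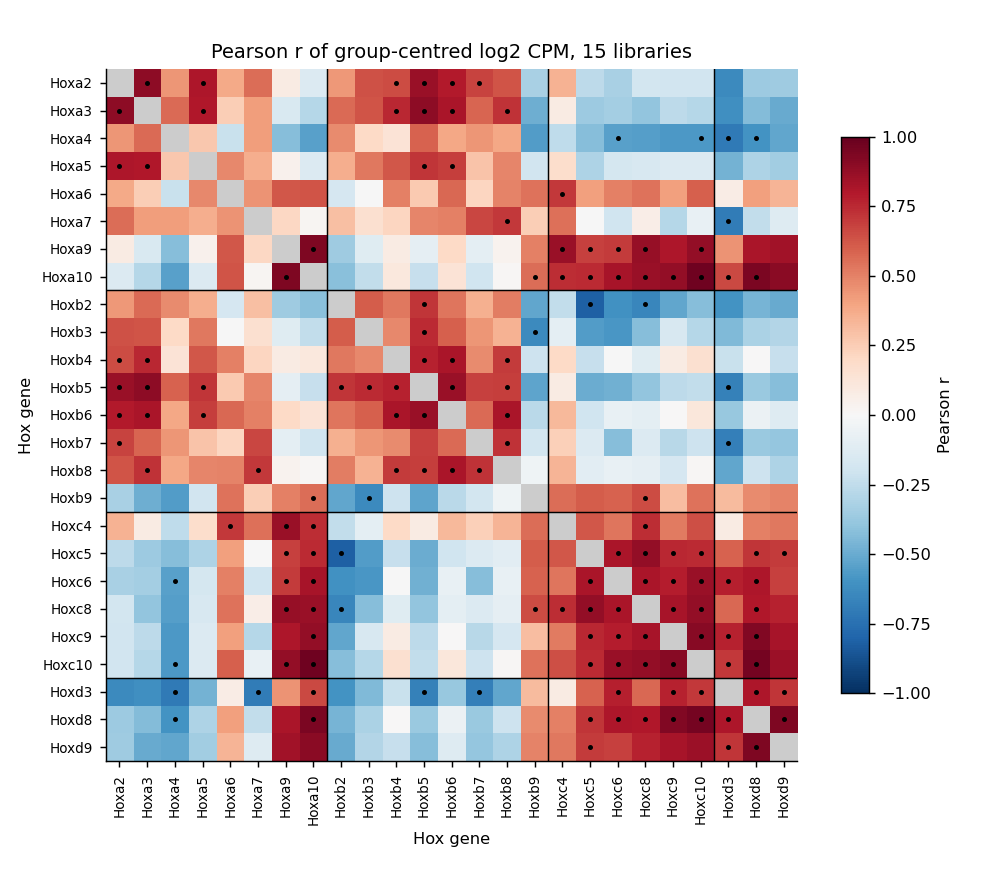
Pearson r of group-centred log2 CPM over 15 libraries for each pair of the expressed Hox genes reported here, ordered by cluster and number, with a dot where the adjusted permutation p is under 0.05. Most cells of Hoxa2 to Hoxa7 with Hoxb2 to Hoxb8 are red, as are most cells of Hoxa9 and Hoxa10 with the Hoxc and Hoxd genes, with the strongest cell at Hoxa10 and Hoxc10 (0.97).

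Against the marker lists of other cells, 5 of 130 relations passed adjustment over the 130 (permutation test within groups, 26 members by the smooth muscle, adventitial fibroblast, brown adipocyte, Schwann cell and mesothelial lists). With the mesothelial list, Hoxc9 had an r of 0.68 (rho 0.83), Hoxc5 0.83 (rho 0.81), Hoxc8 0.68 (rho 0.77) and Hoxb2 -0.76 (rho -0.78). Their adjusted permutation p-values on r were 0.0208, 0.0208, 0.0377 and 0.0432, and on rho Hoxc8 and Hoxb2 missed the threshold (adjusted permutation p = 0.0504 for both). Hoxc6 passed on rho (0.825, adjusted permutation p = 0.0270) but not on r (0.78, adjusted permutation p = 0.208). For the 4 genes, r without the 2 libraries farthest from the list's median was 0.66, 0.70, 0.67 and -0.68. Hoxd3 with the Schwann cell list had an r of 0.80, a rho of 0.89 and an adjusted permutation p of 0.0377 on r, and r was 0.82 without the farthest 2. These calls were not stable, since 0 of 130 relations passed without celecoxib 1, celecoxib 3, rofecoxib 1, rofecoxib 2, vehicle 4 or vehicle 5 in turn. The mesothelial list, markers of the lining of body cavities, had only 3 of its 10 genes tested, Lrrn4, Krt18 and Rspo1. Its r and rho used the mean log2 CPM of these 3 alone. Lrrn4 (0 to 1.57 CPM) and Rspo1 (0.237 to 2.86 CPM) were low, while Krt18 ranged from 4.67 to 15.1 CPM. The summed level of all 10 genes was 8.83 to 14.9 CPM in vehicle, 12.9 to 22.2 CPM in celecoxib and 11.2 to 15.6 CPM in rofecoxib. Most of this sum came from Krt18. Upk1b and Bnc1, which did not enter r, were each at 0 in 9 of 15 libraries. The 12 Schwann cell markers were all tested, summed to 784 to 856 CPM in vehicle, 618 to 1313 CPM in celecoxib and 718 to 1139 CPM in rofecoxib, and none was at 0. Hoxa10 and Hoxc10 did not pass with any of the 5 lists: for the mesothelial list r was 0.50 and 0.58, and for the Schwann cell list it was 0.52 and 0.54. The endothelial list was not among the 5, so its relation to the members was not tested. The sympathetic neuron list was left out because its libraries fall into 2 clusters, and Hoxa10 in its 5 high libraries was 15.9, 11.4, 8.35, 8.82 and 10.2 CPM, in the order of the libraries given above.

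The first drug comparison asked whether celecoxib changed the members within 6 hours. With p-values from the edgeR quasi-likelihood fit adjusted by Benjamini-Hochberg over 15134 tested genes, 0 of 29 tested members passed an adjusted p of 0.05, against a background of 0% of all tested genes. DESeq2 and limma-voom also called 0 members, while DESeq2 called 126 of all genes. An unadjusted p under 0.05 was reached by 3 of 29 members (10.3%), against 12.5% of all tested genes in edgeR. It was reached by 4 members (13.8%) in DESeq2 and in limma-voom, against 12.9% and 12.4% of all genes. The smallest p belonged to Hoxa4, an early gene of the neck and upper trunk. Hoxa4 read 7.3, 5.36, 6.37, 5.05 and 6.96 CPM in vehicle libraries 1 to 5, 5.02, 4.99, 4.66, 4.94 and 4.5 CPM in celecoxib libraries 1 to 5, and 6.22, 7.44, 5.45, 6.52 and 5.56 CPM in rofecoxib libraries 1 to 5. The highest library was rofecoxib 2. The celecoxib and vehicle libraries did not overlap, at 4.82 ± 0.228 CPM and 6.21 ± 0.979 CPM (SD, n = 5), and Hoxa4 was the only 1 of 29 members for which this held (3.45%, against 1.3% of all tested genes). The log2 fold change was -0.36 (SE 0.12, edgeR adjusted p = 0.284).

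Hoxa7 and Hoxa6 followed in order of p. Hoxa7, a gene of the upper trunk, read 26.8, 23.2, 22.5, 18.7 and 19.5 CPM in vehicle libraries 1 to 5, 27.8, 27.1, 25.9, 23 and 26.9 CPM in celecoxib libraries 1 to 5, and 26.7, 25.1, 23.8, 29.6 and 23.6 CPM in rofecoxib libraries 1 to 5. Celecoxib averaged 26.1 ± 1.88 CPM against 22.1 ± 3.21 CPM in vehicle (SD, n = 5), the groups overlapped, and the log2 fold change was 0.24 (SE 0.09, edgeR adjusted p = 0.332). Hoxa6 read 6.4, 6.65, 7.31, 5.55 and 5.88 CPM in vehicle libraries 1 to 5, 7.02, 7.88, 8.27, 6.64 and 8.32 CPM in celecoxib libraries 1 to 5, and 7.81, 5.64, 8.23, 7.84 and 6.39 CPM in rofecoxib libraries 1 to 5. Its groups overlapped too, at 7.63 ± 0.761 CPM against 6.36 ± 0.682 CPM, with a log2 fold change of 0.26 (SE 0.12, edgeR adjusted p = 0.378). The median log2 fold change was 0.04 over the 29 tested members and 0.0051 over all tested genes, with 17 members higher and 12 lower. Without celecoxib 1 the median log2 fold change over members was 0.13, with 21 higher and 8 lower. For the 8 tested members numbered 9 to 11 it was 0.24 with 7 higher, and 0.40 with 8 higher without celecoxib 1. That library was set apart after its low values in these genes were seen. Its removal therefore raises this median by that choice, and the higher value is no separate result. With the mean of the brown adipocyte markers as a covariate, 0 of 29 members and 8.62% of all tested genes had an unadjusted p under 0.05. The log2 fold change of Hoxa4 was then -0.34, that of Hoxa7 0.13 and that of Hoxa6 0.20.

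Rofecoxib against vehicle gave 0 of 29 members past an adjusted p of 0.05, with edgeR, DESeq2 and limma-voom alike, against 0% of all tested genes in edgeR. An unadjusted p under 0.05 was reached by 1 member in each of the 3 tools (3.45%, against 5.18% of all tested genes in edgeR, 5.37% in DESeq2 and 5.15% in limma-voom), and 0 members had groups that did not overlap (1.16% of all tested genes). That 1 member was Hoxa7, at 25.8 ± 2.5 CPM against 22.1 ± 3.21 CPM (SD, n = 5), with a log2 fold change of 0.22 (SE 0.09, edgeR adjusted p = 0.913). Hoxa11 had a log2 fold change of -1.29 (SE 0.81, edgeR adjusted p = 1.0), which was -0.97 without rofecoxib 2. Hoxa6 had one of 0.18 (SE 0.12, edgeR adjusted p = 1.0). All 8 tested members numbered 9 to 11 had negative log2 fold changes, with a median of -0.42, and none passed. Of all 15134 tested genes, 7616 were lower. These 8 cannot be read as separate results. Among the expressed ones the median r was 0.837, and 6 of 15 pairs passed adjustment. The median was 0.568 with each pair read without the 2 libraries farthest from the median of its first gene. Hoxa11 and Hoxd10 were not in the pairs. Without rofecoxib 2 the median log2 fold change of the 8 was -0.17. Rofecoxib averaged 6.54 ± 3.18 CPM for Hoxa10 over 5 libraries and 7.93 ± 0.805 over the 4 others, against 9.93 ± 1.57 CPM in vehicle. Over all 29 members the median log2 fold change was -0.08, and -0.04 without rofecoxib 2. It was -0.00067 over all tested genes.

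Celecoxib and rofecoxib were given at different doses, 30 and 10 mg/kg, so their values stand side by side. Both comparisons above use the same 5 vehicle libraries. Between the 2 drug groups 0 of 29 members passed an adjusted p of 0.05 with edgeR, DESeq2 or limma-voom, against 0% of all tested genes in edgeR. An unadjusted p under 0.05 was reached by 3 members in edgeR (10.3%, against 6.96% of all tested genes). DESeq2 gave 5 (17.2%, against 7.51%) and limma-voom 4 (13.8%, against 6.67%). Hoxa4 was again the member of smallest p, and the only 1 without overlap (3.45%, against 1.32% of all tested genes), at 4.82 ± 0.228 CPM in celecoxib and 6.24 ± 0.806 CPM in rofecoxib (SD, n = 5). Its log2 fold change was -0.37 (SE 0.12, edgeR adjusted p = 0.649). Hoxa11 had a log2 fold change of 2.20 (SE 0.80, edgeR adjusted p = 0.649) on means of 1.45 ± 1.39 CPM and 0.312 ± 0.251 CPM, with celecoxib 2 and 5 far above the other 3 libraries of their group. Hoxd10, a limb and lower trunk gene, had one of 1.03 (SE 0.48, edgeR adjusted p = 0.707), and its groups overlapped. The median over the 29 members was 0.07, against 0.0052 over all tested genes. It was 0.014 without rofecoxib 2, 0.11 without celecoxib 1 and 0.027 without both. For the 8 tested members numbered 9 to 11 it was 0.70. This was 0.42 without rofecoxib 2, 0.89 without celecoxib 1 and 0.61 without both. Since both libraries were set apart after their low values in these genes were seen, the shifts are no separate result.

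**Figure D5:**
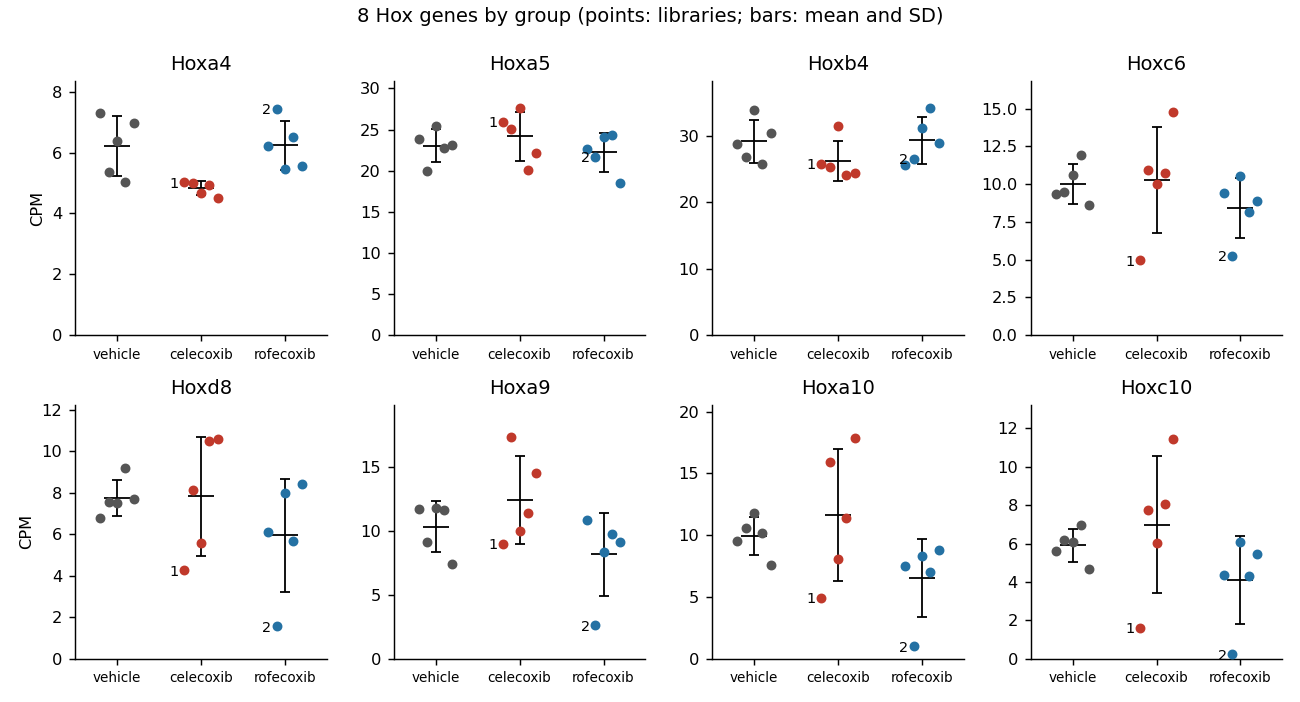
CPM of 8 Hox genes in vehicle, celecoxib and rofecoxib libraries, with points for the 5 libraries of a group, bars for their mean and SD, and the digits 1 and 2 beside celecoxib 1 and rofecoxib 2. In Hoxa4 the celecoxib points (4.5 to 5.02 CPM) lie under all vehicle and rofecoxib points, and in Hoxa9, Hoxa10, Hoxc10 and Hoxd8 the lowest point is rofecoxib 2.

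Hox proteins bind DNA together with TALE homeodomain cofactors of the Pbx, Meis and Pknox families. All 9 listed cofactors were tested and 8 averaged at least 1 CPM. Meis1 averaged 46.4 ± 5.45 CPM, Meis2 45.1 ± 4.43 CPM and Pknox1 20.7 ± 2.82 CPM (SD, n = 15), while Pbx4 averaged 0.476 ± 0.144 CPM. None of the 9 passed in any comparison, and the median log2 fold change was 0.05 for celecoxib and 0.06 for rofecoxib against vehicle. Their summed level was 213 CPM in celecoxib 1 and 241 in rofecoxib 2, in a range of 213 to 255 over all libraries.

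Regulators of the Hox clusters were described from a list of 28 genes, of which 23 were tested. The Polycomb components that keep Hox genes silent, among them Ezh1 (75.7 ± 2.92 CPM), Suz12 (51.4 ± 4.85 CPM) and Bmi1 (52.4 ± 2.78 CPM), and the activating methyltransferase Mll1 (125 ± 8.1 CPM) were present in every library. Cdx1, Cdx2 and Cdx4, which switch on central Hox genes in the embryo, were at 0 or had at most 0.0317 CPM. None of the 23 passed in any comparison. The members of smallest p, chosen after their values were seen, were the demethylase Kdm6b, the retinoic acid receptor Rarb and the retinoic acid-degrading enzyme Cyp26b1, all between celecoxib and rofecoxib. Kdm6b averaged 80.6 ± 8.13 CPM and 64.3 ± 2.58 CPM there, with a log2 fold change of 0.32 (SE 0.08, edgeR adjusted p = 0.642). Rarb averaged 9.38 ± 2.63 CPM and 14.4 ± 2.28 CPM (log2 fold change -0.62, SE 0.19, edgeR adjusted p = 0.649). Cyp26b1 averaged 20.6 ± 6.06 CPM and 33.9 ± 7.65 CPM (log2 fold change -0.71, SE 0.22, edgeR adjusted p = 0.649).

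Of 22 other positional regulators, 12 were tested and 11 averaged at least 1 CPM. The limb and trunk mesenchyme gene Prrx1 averaged 147 ± 21.5 CPM, Tbx18, a marker of mural cell lineages, 105 ± 14.5 CPM, Foxc1 132 ± 13.2 CPM, Foxc2 52.5 ± 4.75 CPM and Gata6 75.6 ± 11.9 CPM. The cardiac gene Nkx2-5 was at 0 in all libraries, and Otx2, Tbx4, Emx2 and Evx2 were at most 0.130 CPM in any. Other genes of the heart fields were higher, with Isl1 at 2.6 ± 1.91 CPM, Tbx20 at 2.07 ± 0.578 CPM and Tbx1 at 3.27 ± 0.692 CPM. Tbx5, a heart and forelimb gene, averaged 1.22 ± 0.399 CPM in vehicle, 0.509 ± 0.345 CPM in celecoxib and 0.54 ± 0.273 CPM in rofecoxib. It did not pass (edgeR adjusted p = 0.30 and 0.896 against vehicle). Hand2, which sympathetic neurons also express, ranged from 0.581 to 18.4 CPM.

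The genes whose pattern over the 15 libraries was most like a member were taken by Spearman's rho of group-centred log2 CPM, among 11851 tested genes, for the leading member of each cluster. For Hoxa5 they were Csnk2a1 (rho 0.911), Zfp869 (0.904) and Mtap7d3 (0.868). For Hoxb4 they were Cbx7 (0.886), Ikzf2 (0.846) and Ypel4 (0.821), of which Cbx7 is a Polycomb component. For Hoxc6 they were Ptk7 (0.943), Slco2a1 (0.907) and Unc13b (0.896). For Hoxd8 they were the homeobox gene Lhx6 (0.954), Gpr126 (0.946) and Podxl (0.925). Hoxa10, added after its values were seen, was most like Frem2 (0.957), Tg (0.932) and Col8a1 (0.911), and Hoxc10 most like Frem2 (0.882), Lhx6 (0.857) and Plvap (0.839). Frem2 had 0.0667 CPM in rofecoxib 2 and a median of 2.43 CPM. These are descriptions of 15 libraries, picked as the highest of many values.

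Other rows of the table lie inside the clusters. In mm9, the build of the deposited table, the members spanned chr6:52105164-52211076 for Hoxa, chr11:96055428-96229772 for Hoxb, chr15:102751332-102867476 for Hoxc and chr2:74506165-74603402 for Hoxd. Of the other rows there, 5 of 9 in Hoxa, 3 of 10 in Hoxb, 0 of 7 in Hoxc and 0 of 7 in Hoxd averaged at least 1 CPM. Hoxb3os, an antisense RNA that overlaps Hoxb2 and Hoxb3, averaged 13.9 CPM (range 8.16 to 19.8). Hoxa11as, antisense to Hoxa11, ranged from 0 to 1.48 CPM. The rows of Mir10a, Mir10b, Mir196b, Mir196a-1 and Mir196a-2 were at 0 in polyadenylated RNA. Of the 26 expressed members, 17 had a span that overlapped another row with a mean of at least 0.1 CPM. These spans include introns, and the overlap of exons was not measured. The strand setting of the counting is not given in the sources, so how reads in a shared stretch were assigned is not known. Hoxa3 overlaps Hoxa4, Hoxa5 and Hoxa6, Hoxa9 overlaps Hoxa10, Hoxb7 overlaps Hoxb8 and Hoxd3 overlaps Hoxd4. The rows that overlap expressed Hoxc members are at 0, and Hoxa10 and Hoxc10, the pair of highest r, do not overlap each other.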

How the data were processed

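Polyadenylated RNA of thoracic aorta from 15 mice was sequenced, 5 per group, and the labels call the samples of a group biological replicates. The authors deposited 1 table of read counts per gene, as whole numbers with no normalization. Per the submitters' processing notes, CASAVA 1.8.2, STAR 2.5.2a and the mm9 build were used. The sources used here do not give the counter, its strand setting or the reason for the nearly equal totals. The members and all gene lists were chosen with earlier results of these data known.

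The deposited counts were fitted over all 15 libraries with edgeR 4.0.16 (R 4.3.3; TMM scaling, filterByExpr, robust quasi-likelihood test) for 3 contrasts, with Benjamini-Hochberg adjustment over 15134 genes. DESeq2 1.42.0 and limma 3.58.1 were alternatives. The fit was tested on simulated data. Correlations used log2 CPM (prior count of 2) after the group means were removed, with 100000 permutations within groups (Python 3.11.15, numpy 2.4.6, scipy 1.17.1). Exon lengths came from GENCODE vM21 by Ensembl ID (38 of 40 rows matched). Intervals and floors cover counting error only. For each comparison the 3 members of smallest p were named; genes named by likeness were the top 3 by rho. Samples with the same replicate number were not paired by the labels. Some genes and sequences are not reported here, but all genes enter the counts and medians.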

Additional observations from a re-analysis of the deposited data

Results flagged for a closer look

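In 5 of 87 sets (29 tested members by 3 groups of 5 libraries), 1 library lay far from the other 4 by Dixon's criterion, which chance meets in about 1 of 20 sets. Hoxa10 was 1.0 CPM in rofecoxib 2, against 7.03 to 8.82 CPM in the other rofecoxib libraries. Hoxb4 was 31.5 CPM in celecoxib 3, against 24.1 to 25.8 CPM. Hoxb5 was 18.0 CPM in rofecoxib 4, against 15.0 to 15.6 CPM. Hoxb9 was 5.05 CPM in celecoxib 5, against 3.02 to 3.37 CPM. Hoxd10 was 0.506 CPM in rofecoxib 5, against 0.0667 to 0.194 CPM.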

How the results depend on the processing

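Over 170 alternative values of the named fold changes, 0 changed sign and 0 passed an adjusted p of 0.05. At an unadjusted p of 0.05 the calls were 3 for celecoxib against vehicle, 1 for rofecoxib against vehicle and 3 for celecoxib against rofecoxib. Without rofecoxib 2 and celecoxib 1 they were 7, 2 and 6 (24.1%, 6.9% and 20.7% of members, against 9.63%, 4.66% and 3.53% of all genes in that fit). Those 2 libraries were chosen after their low values in members were seen, so the higher counts are no separate support. Over all genes edgeR called 0 in each comparison, and DESeq2 called 126, 0 and 19. With the replicate block, 0 members passed in all 3 comparisons. Of 15 same-number pairs of samples, 6 correlated above 0.1 (range -0.721 to 0.775). Cell type markers also differ between libraries, so these correlations cannot settle whether same-numbered samples were paired. The labels do not pair them. The count of member pairs that varied together was 33 to 69 over fits without 1 library and 22 without rofecoxib 2 and celecoxib 1, the latter chosen after seeing the data. Relations with marker lists numbered 0 to 6 over fits without 1 library, 2 without centring and 0 without both libraries. Expressed members numbered 28 at 0.5 CPM and 18 at 5 CPM. With the genomic span as length, 3 of 4 clusters kept their leading gene, but Hoxa4 then lay above Hoxa3 and Hoxb5 above Hoxb6 and Hoxb7. Hoxd10 could not be tested in the fit of only the libraries compared. The cause of these changes was not tested. Members under 1 CPM rest on few counts.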
